A study of Mus musculus with 8 samples.

Results

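Oxidative phosphorylation genes were followed in PER-M60, a mouse leukaemia cell line, kept in 2 media. They were the rows of the deposited count table whose Ensembl ID maps to a protein-coding symbol beginning with mt-, Nduf, Uqcr, Atp5 or Cox and a digit, or to Sdha, Sdhb, Sdhc or Sdhd. These made 116 of the 21859 gene IDs. Of these, 13 are encoded in the mitochondrial genome and 103 in the nucleus, and they belong to complex I (51), complex II (4), complex III (9), complex IV (32) and complex V (20). The study had 8 samples, 4 in control media and 4 in osteoclast-conditioned media, with the replicates of each medium numbered 1 to 4. The labels give no dose or duration of the conditioned media, and they do not say whether the replicates came from separately grown cultures, so the p-values below measure the spread between these samples, which may be technical. The comparison asks what the conditioned media changed in the RNA of the leukaemia cells, read here by complex and by genome of origin.

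Oxidative phosphorylation passes electrons from NADH and succinate through complexes I to IV of the inner mitochondrial membrane to oxygen. The proton gradient so formed drives complex V, the ATP synthase. The mitochondrial genome encodes a handful of membrane-embedded core subunits, which are transcribed as long precursors from both strands and cut at the tRNAs between them. All other subunits and the assembly factors are made from nuclear genes and imported, so each complex except complex II draws on both genomes.

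Total counts ran from 15391754 to 21637966 per sample. The B-lineage markers used as a check (9 of 9 tested) were expressed in every sample, 6 of them higher and 1 lower in conditioned media, with a summed level of 4315 to 4363 CPM (counts per library size, scaled so that samples can be compared) in control media and 4605 to 4638 CPM in conditioned media. By the test described below, 15.7% of all genes tested were higher and 14.8% lower. Of the osteoclast markers, Dcstamp and Ocstamp were at 0 in all samples, Ctsk had at most 5 counts and Calcr at most 1. Of 11 osteoclast genes listed, 3 could be tested (Nfatc1 higher, Itgb3 lower, Acp5 without a call), and the summed level of the list was 128 to 135 CPM in control and 139 to 145 CPM in conditioned media. Of 7 myeloid genes, Elane and Itgam were at 0 in all samples and 2 could be tested, of which Lyz2 was higher (4.46 and 5.91 CPM on average) and Cd68 was not called. The summed myeloid level was 6.38 to 7.19 CPM in control and 7.46 to 9.22 CPM in conditioned media, with no overlap. Of 4 general leukocyte genes, Ptprc was higher and Cd48 lower. Of 6 T lineage genes, Cd8a and Cd3g were at 0 in all samples and 3 had too few counts for the test. The 1 tested, Lck, had a log2 fold change of 0.02 and was not called. The sum of the list was 132.8 to 133.5 CPM in control and 133.8 to 137.3 CPM in conditioned media, with no overlap. With 1 gene tested, this sum is not read as a T lineage level. The stroma genes summed to at most 0.065 CPM. The part of such cells in the results was not tested. In these bulk samples, a change in the share of cells carrying an RNA cannot be told apart from a change in the RNA per cell.

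Not every gene could be read. Counts of 0 in all 8 samples were found for 7 members: Ndufa13, Cox16, Cox17, Cox4i1, Cox6a2, Cox7b2 and Cox8c. Cox4i1, the ubiquitous form of the regulatory subunit COX4, lies wholly within the span of Gm20388, a readthrough entry of the annotation, and Ndufa13, Cox16, Cox17 and Cox6a2 likewise lay with 99.2 to 100% of their span inside other annotated genes. A 0 in these 5 genes was therefore treated as unmeasured; the part of the overlap in it was not tested. Cox7b2 and Cox8c overlapped no other gene, and at these depths 3 counts would correspond to 0.139 to 0.195 CPM. A further 6 members had too few counts for the test: mt-Nd4l, mt-Atp8, the tissue-restricted isoforms Cox4i2, Cox6b2 and Cox8b, and Ndufa4l2, each with at most 12 counts in any sample. The 103 remaining members entered the fit with all other expressed genes.

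The mitochondrial genes themselves fell into 2 levels that followed their position. Counts of the mt-Co1 gene ran from 74882 to 102013 per sample and those of mt-Nd4 from 6054 to 9373. Between these neighbours on the mitochondrial genome lie mt-Co2 (10 to 23 counts), mt-Atp8 (1 to 8), mt-Atp6 (8 to 19), mt-Co3 (15 to 29), mt-Nd3 (69 to 117) and mt-Nd4l (4 to 12), all subunits that every respiring cell is known to make. This stretch of the mitochondrial genome has a near-identical nuclear copy, annotated on GRCm38 as a row of 7 unprocessed pseudogenes on the minus strand of chr1:24611535-24616197. Over the 4149 bases of the 7 genes that could be laid beside their copy without gaps, 7 differed (99.8% identity), and 6 of those stood at the start of the copy of mt-Co1. Of the 50-base words of each low gene, 98.0 to 100% also occurred in other annotated genes, chiefly these copies, except for mt-Atp8 at 0%, since the annotation lists no gene between the copies of mt-Co2 and mt-Atp6. The share of words found in any other annotated gene, whether in this row of copies or elsewhere, was 62.2% for mt-Nd4, 51.1% for mt-Co1, 8.19% for mt-Nd2 and 7.61% for mt-Nd5, and 0% for mt-Nd1, mt-Nd6 and mt-Cytb. The first 120 bases of mt-Co2 (chrM:7013-7132) and of its copy Gm28661 are shown because a read from either could not be placed by sequence alone, and the first bases of the mt-Co1 copy Gm29216 beside mt-Co1 (chrM:6381-6500) because they mark where the copy begins, with the differing bases in capitals.
mt-Co2: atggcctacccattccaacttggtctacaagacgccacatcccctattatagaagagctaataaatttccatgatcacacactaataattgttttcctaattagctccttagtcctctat
Gm28661: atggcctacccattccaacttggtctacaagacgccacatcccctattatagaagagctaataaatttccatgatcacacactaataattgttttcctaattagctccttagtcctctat
mt-Co1: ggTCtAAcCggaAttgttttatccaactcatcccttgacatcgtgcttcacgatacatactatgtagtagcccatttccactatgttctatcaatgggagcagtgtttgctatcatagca
Gm29216: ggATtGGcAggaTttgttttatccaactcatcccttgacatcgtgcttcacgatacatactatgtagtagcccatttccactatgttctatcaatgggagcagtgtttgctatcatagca
The mt-Co2 stretch held 0 differences over its 120 bases, and its whole copy 0 over 681 bases. In the mt-Co1 pair, 6 bases differed near the 5′ end and the rest of the stretch was the same in both. How reads with several equal placements were counted is not given in the sources used here, so the low counts of these 6 genes are not read as levels. Only the 7 mitochondrial genes with over 1000 counts in every sample are compared below as expression.

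**Figure D1:**
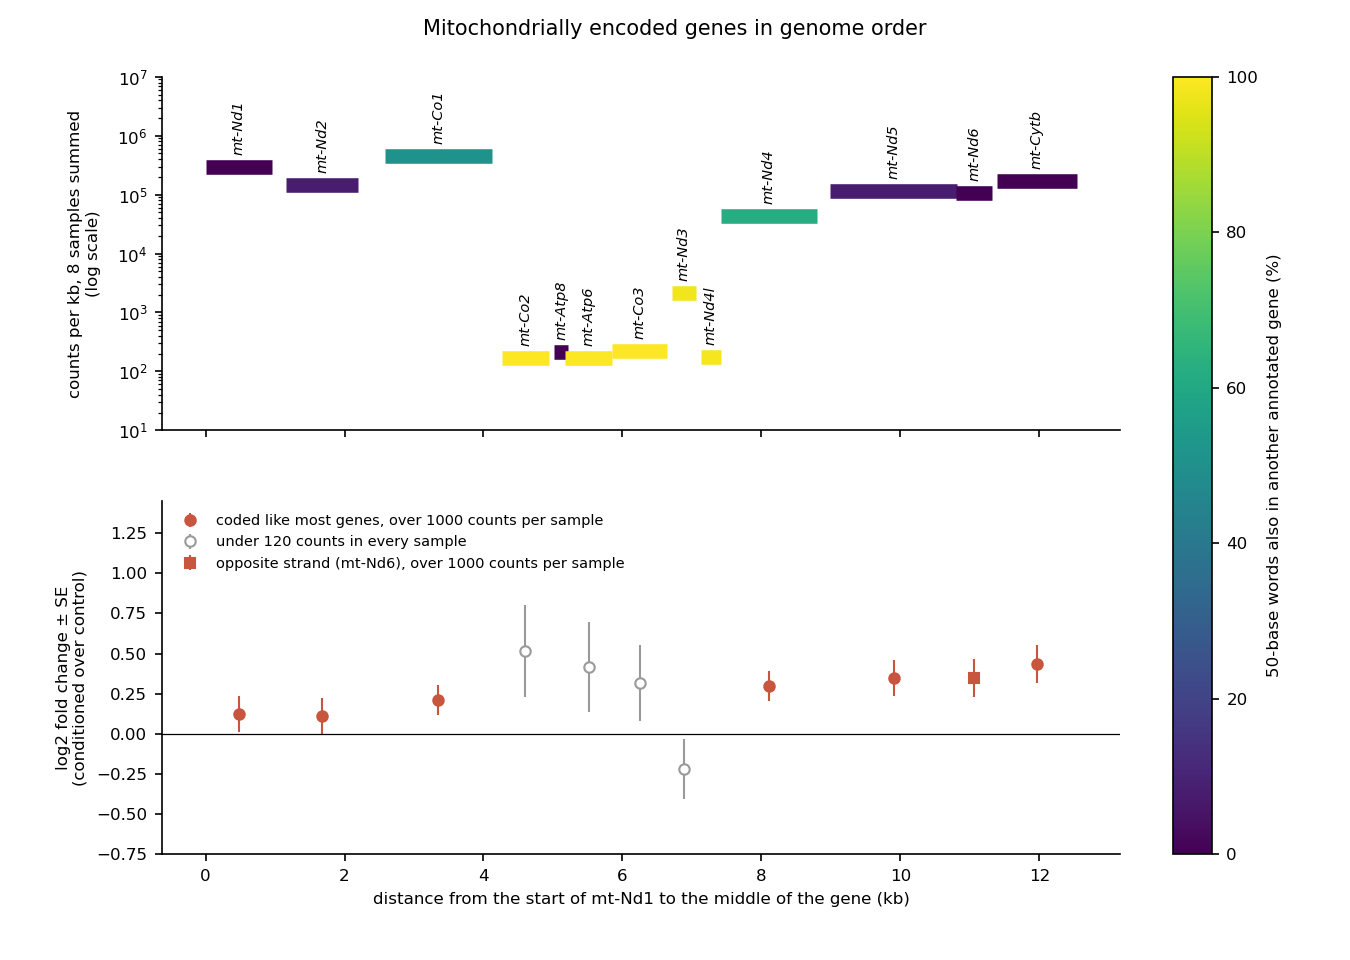
Mitochondrially encoded genes by distance from the start of mt-Nd1 (kb). The upper segments, each as long as its gene, give counts per kb summed over the 8 samples on a log scale, coloured by the percent of 50-base words found in another annotated gene, and the lower points give the log2 fold change of conditioned over control media with its standard error for the 11 genes tested. The 6 genes between mt-Co1 and mt-Nd4 had at most 117 counts in any sample, and among the 7 others the change was 0.12 at mt-Nd1, 0.11 at mt-Nd2 and 0.44 at mt-Cytb.

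Per length, the mitochondrial genes that could be read stood above most nuclear members. In control media, mt-Co1 gave 2913 CPM per kb of exon, mt-Nd1 1968, mt-Cytb 1009, mt-Nd2 985, mt-Nd5 705, mt-Nd6 647 and mt-Nd4 276. The highest nuclear members per kb were Atp5a1 (413), Cox6a1 (394) and Atp5b (375), the first and last of which code for the catalytic-head subunits of the ATP synthase. These values use the whole annotated exon length, so a gene whose RNA uses a shorter form is understated. The places of mt-Co1 and mt-Nd4 in the order are not read, since 51.1 and 62.2% of their words also occur in other genes and the counting of such reads is not known.

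Each member was compared between media with edgeR's quasi-likelihood test, fitted over all 10729 genes with enough counts, and called where the Benjamini-Hochberg adjusted p was under 0.05. Of all genes tested, 30.5% were called, 15.7% higher and 14.8% lower in conditioned media. Of the 103 members, 25 were called (24.3%), 2 of them higher and 23 lower. Of the 25, 6 overlapped another listed gene. Among the members that overlapped no listed gene, 19 were called, 2 higher and 17 lower. The median log2 fold change was -0.06 over the members and -0.01 over all genes. The members' share of calls thus lay a little below that of all genes, while more of the calls were lower than higher and the sizes were small, with called falls of between 7.22 and 24.3%. The split depended on the fit: with an offset for GC content and length in edgeR, 10 members were higher and 16 lower, and with that offset and a replicate block 12 and 19.

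The members were also counted by genome of origin, with no test of the difference between the genomes. All 7 mitochondrially encoded genes with over 1000 counts had a positive log2 fold change, with a median of 0.30, but 1 was called. The 4 other mitochondrial genes tested, whose low counts are not read as levels, were not called; of these mt-Nd3 had the single negative value among the mitochondrial genes (-0.22, called lower without control replicate 2 at an edgeR adjusted p of 0.027). Of 92 nuclear genes tested, 24 had a positive value, the median was -0.09, and 24 were called, 1 higher and 23 lower. Among all genes, the groups did not overlap with conditioned media higher for 15.2% and with conditioned media lower for 12.9%. Among the 7 mitochondrial genes, 5 did not overlap, all higher. Among the 92 nuclear genes, 22 did not overlap with conditioned media lower and 1 with conditioned media higher.

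The mitochondrially encoded genes took 1.08, 0.903, 1.16 and 1.12% of all counts in control replicates 1 to 4. In conditioned media they took 1.16, 1.17, 1.19 and 1.44%. The conditioned samples were mostly higher, with conditioned replicate 4 far above the other 3, but conditioned replicate 1 lay just under control replicate 3, so the groups overlapped. The difference of the means was 0.172 percentage points with all samples and 0.106 without conditioned replicate 4.

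The nuclear members took 0.969, 0.966, 0.969 and 0.950% of counts in control media and 0.943, 0.939, 0.931 and 0.937% in conditioned media. All 4 conditioned samples lay below all 4 controls, by 0.026 percentage points on average. With TMM scaling, as used for the tests, the groups overlapped: the summed level of the nuclear members was 9414 to 9655 CPM in control and 9385 to 9535 CPM in conditioned media. The ratio of mitochondrial to nuclear member counts was 1.11, 0.934, 1.19 and 1.18 in control media and 1.23, 1.24, 1.28 and 1.53 in conditioned media. That ratio did not overlap between the media, while its range within control media was wider than the distance between the means of the groups. Shares are of counts in the libraries, and the intervals from counting alone (95% Wilson, for example 1.43 to 1.44% for conditioned replicate 4) were far narrower than the spread between samples; they cover counting error only.

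**Figure D2:**
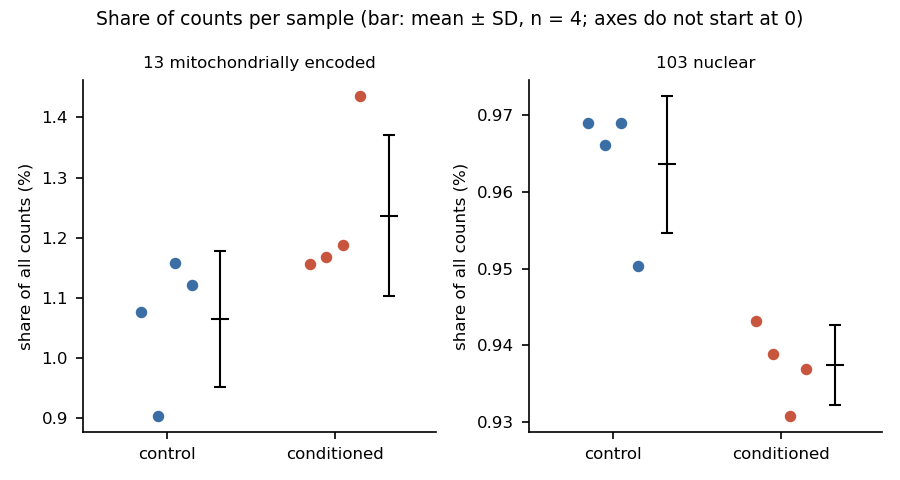
Share of all counts (%) taken by the 13 mitochondrially encoded and the 103 nuclear members in each sample, with mean ± SD (n = 4 per medium). The mitochondrial share overlapped between media, with conditioned replicate 4 at 1.44%, and the nuclear share of unscaled counts was lower in each conditioned sample (0.931 to 0.943%) than in any control sample (0.950 to 0.969%).

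Among the 7 mitochondrial genes with over 1000 counts, the difference between media was smallest at mt-Nd2 and mt-Nd1 and largest at mt-Cytb. mt-Cytb, the cytochrome b of complex III and the last gene on the heavy-strand transcript, was at 1140, 970, 1294 and 1211 CPM in control media and at 1442, 1465, 1489 and 1842 CPM in conditioned media. All conditioned samples lay above all controls. In log2 terms it was higher by 0.44 (SE 0.12, edgeR adjusted p = 0.036), the only call among the mitochondrial genes. The call was not firm: without any 1 of 7 of the 8 samples (every one but control replicate 3) the adjusted p was between 0.053 and 0.087, and without conditioned replicate 4 the change was 0.35.

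The other genes gave smaller changes that did not pass the test. mt-Nd1 and mt-Nd2, core membrane subunits of complex I near the start of the transcript, had log2 fold changes of 0.12 (SE 0.11) and 0.11 (SE 0.11), and their groups overlapped. Over 19 alternative fits the change ran from 0.045 to 0.20 for mt-Nd1 and from 0.028 to 0.20 for mt-Nd2, without a call. mt-Co1, the catalytic subunit of complex IV, was at 0.21 (SE 0.09, edgeR adjusted p = 0.15). mt-Nd4, mt-Nd5 and mt-Nd6, further membrane subunits of complex I, were at 0.30, 0.35 and 0.35, with edgeR adjusted p of 0.052, 0.059 and 0.077. These 4 genes did not overlap between the media. DESeq2 on the same counts called 4 mitochondrial genes (mt-Nd4, mt-Nd5, mt-Nd6 and mt-Cytb), as did the offset for GC content and length in edgeR. With the replicate block, alone or with the offset, edgeR called 5, these and mt-Co1. The edgeR adjusted p of mt-Co1 itself went down to 0.0035. Over the 6 heavy-strand genes with over 1000 counts, the change and the start position had a Pearson r of 0.99 and a Spearman rho of 0.94; the genes share samples and are not independent, and mt-Co1 and mt-Nd4 are among them in spite of their copied words. The values did not rise at each step, with mt-Nd2 just under mt-Nd1.

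Ratios within a sample take out what moves all mitochondrial genes together, such as the high level of all of them in conditioned replicate 4. The ratio of mt-Cytb to mt-Nd1 counts was 0.585, 0.618, 0.630 and 0.618 in control media and 0.742, 0.755, 0.769 and 0.770 in conditioned media. The samples of each medium lay close together and the media far apart, at a mean ratio 23.9% higher in conditioned media, and conditioned replicate 4 stood with its group. The ratio of mt-Nd5 to mt-Nd1 was 0.644, 0.693, 0.690 and 0.704 against 0.777, 0.796, 0.823 and 0.791, again with no overlap and 16.7% higher.

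Nearer to mt-Nd1 the ratios differed less. mt-Nd2 to mt-Nd1 was 0.542 ± 0.0092 in control and 0.539 ± 0.0089 in conditioned media (SD, n = 4 each), with overlapping groups. mt-Co1 to mt-Nd1 was 2.39 ± 0.0734 against 2.54 ± 0.0434, and mt-Nd4 to mt-Nd1 was 0.203 ± 0.0120 against 0.228 ± 0.0060; in both, control replicate 2 reached the lowest conditioned sample. mt-Nd6, the only protein gene read from the opposite strand, lies between mt-Nd5 and mt-Cytb. Its ratio to mt-Nd5 was 0.261 in both media. The use of strand in the counting is not given in the sources used here, so RNA of mt-Nd6 cannot be told apart from heavy-strand RNA running antisense to it. These ratios were given no test.

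**Figure D3:**
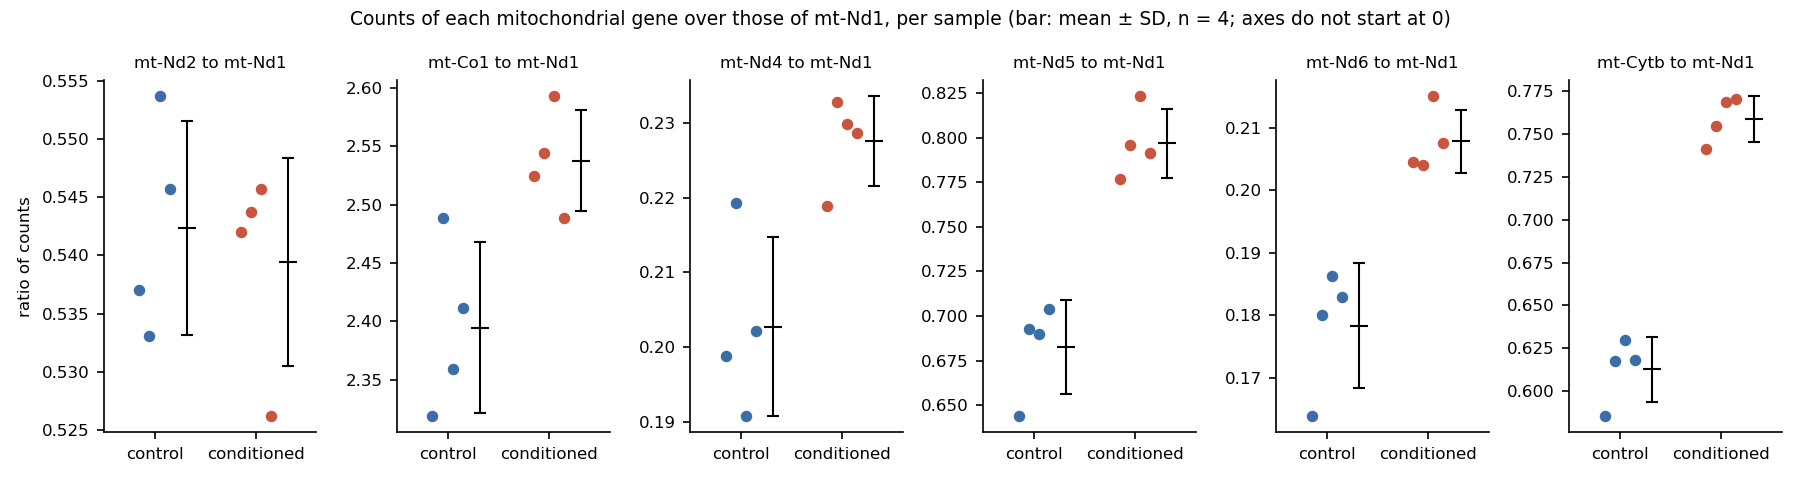
Ratio of each mitochondrial gene's counts to those of mt-Nd1 in each sample, in genome order from left to right, with mean ± SD (n = 4 per medium). mt-Nd2 to mt-Nd1 overlapped between media (0.542 and 0.539 on average), while mt-Nd5, mt-Nd6 and mt-Cytb did not, with mt-Cytb at 0.585 to 0.630 in control and 0.742 to 0.770 in conditioned media.

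The nuclear genes of complex I, the NADH dehydrogenase, included 9 lower and 0 higher calls among 43 tested (20.9%, against 30.5% called and 14.8% lower among all genes), with a median log2 fold change of -0.09 (-0.036 with the offset). They comprised 5 of 28 accessory subunits, 3 of 8 assembly factors and 1 of 7 core subunits. The core subunit was Ndufs1. This protein, which carries iron-sulfur clusters of the electron path, had RNA levels of 141, 146, 148 and 142 CPM in control media and of 133, 134, 131 and 135 CPM in conditioned media. The groups did not overlap, although the step was small (log2 fold change -0.11, SE 0.03, edgeR adjusted p = 0.0043). Ndufv1, the NADH-binding core subunit, was at 86.0 ± 0.817 and 87.3 ± 0.746 CPM (SD, n = 4 each), and was not called.

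Ndufc1, a small accessory subunit of the membrane arm, had the largest called fall among the members. It was at 8.11, 9.32, 7.90 and 7.79 CPM in control media and at 7.02, 6.65, 5.85 and 5.66 CPM in conditioned media. The groups did not overlap, and the gene was at -0.40 on the log2 scale (SE 0.10, edgeR adjusted p = 0.0024). Ndufa3, another accessory subunit, changed by -0.29 (SE 0.10, edgeR adjusted p = 0.044), a call lost in 8 of 20 alternative fits (adjusted p up to 0.159): with an offset for GC content and length, with a replicate block, with both, and without any 1 of control replicates 1 and 3 and conditioned replicates 1, 2 and 3.

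Of 8 complex I assembly factors, which help build the complex and are not part of it, 3 were called lower and 0 higher. Ndufaf4 was at 53.9, 52.7, 50.5 and 56.4 CPM in control media and at 43.3, 43.5, 46.1 and 46.0 CPM in conditioned media. The media were well apart (log2 fold change -0.26, SE 0.04, edgeR adjusted p = 3.4e-05). Ndufaf3, which works with Ndufaf4 early in assembly, fell by 0.38 on the log2 scale (SE 0.10, edgeR adjusted p = 0.0060) at about 6 CPM, with no overlap. Ndufaf2 fell by 0.24 on that scale, a call lost without control replicate 3, and 80.9% of its 50-base words also occur in another annotated gene.

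Complex II, the succinate dehydrogenase, is wholly nuclear. Sdha, the flavoprotein, was at 610 ± 11.5 CPM in control and 615 ± 10.5 CPM in conditioned media (SD, n = 4 each). Sdhb, the iron-sulfur subunit, and Sdhc, a membrane anchor, had log2 fold changes of 0.02 (SE 0.03) and 0.03 (SE 0.04). None of these 3 was called. Sdhd, the other membrane anchor, was at 90.6, 91.4, 95.3 and 89.3 CPM in control media and at 82.8, 88.3, 85.2 and 79.8 CPM in conditioned media. Its groups did not overlap, log2 fold change -0.13 (SE 0.04, edgeR adjusted p = 0.0082). The call was lost with the offset for GC content and length, with and without the replicate block, where the change came as near 0 as -0.081 and the adjusted p went up to 0.074.

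Complex III, the cytochrome bc1 complex, gave 1 lower call among 8 nuclear genes (12.5%, against 14.8% lower among all genes). Its median log2 fold change was -0.04, and turned to 0.0019 with the offset and to 0.0016 with offset and block. Leaving out 1 sample moved that median between -0.067 (without control replicate 4) and -0.024 (without conditioned replicate 3). The gene called was Uqcrfs1, the Rieske iron-sulfur protein, at -0.13 (SE 0.04, edgeR adjusted p = 0.025) with overlapping groups. Its call was lost in 7 of 20 alternative fits (adjusted p up to 0.137): with DESeq2, with the offset, with offset and block together, and without any 1 of control replicates 3 and 4 and conditioned replicates 1 and 4. Uqcrc1, a large structural subunit, was at 245 ± 10.2 and 242 ± 3.77 CPM (SD, n = 4 each).

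Complex IV, cytochrome c oxidase, held the largest share of calls among the complexes. Of 19 nuclear genes tested, 7 were lower and 1 higher (42.1% called, against 30.5% of all genes), with a median log2 fold change of -0.15 (-0.097 with the offset). The accessory subunits made 6 of the lower calls among 12 tested: Cox7c, Cox7a2, Cox6b1, Cox7b, Ndufa4 (a complex IV subunit in spite of its name) and Cox5a. The other lower call was Cox19, a copper-handling assembly factor, at -0.21 (SE 0.07). The call of Cox19 was lost with DESeq2 and without any 1 of control replicate 2 and conditioned replicates 2 and 3 (adjusted p up to 0.090), and those of Cox5a and Cox7b with the offset. Cox6a1 and Cox8a, further accessory subunits, had positive values of 0.07 and 0.08 and were not called, though each was called higher in 3 of the 20 alternative fits: both with offset and block and without control replicate 2, Cox6a1 also with the offset alone and Cox8a with no filter on low counts. Whether the complexes differed from each other was not tested.

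Cox7c fell from 64.5, 60.9, 65.6 and 59.4 CPM in control media to 55.0, 50.4, 49.9 and 56.7 CPM in conditioned media. The groups did not overlap (log2 fold change -0.24, SE 0.04, edgeR adjusted p = 1.3e-04). Of its 50-base words, 27.9% also occur in another annotated gene. Cox6b1, the subunit facing the intermembrane space, changed by -0.19 (SE 0.04, edgeR adjusted p = 0.0010), and Ndufa4 by -0.17 (SE 0.04, edgeR adjusted p = 0.0012), both with no overlap.

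In the fit with medium as the only term and no offset, the single nuclear gene called higher belongs to the same small family as one called lower. With the offset for GC content and length, 10 members were called higher, 4 of them mitochondrially encoded. Cox7a2l, known as a factor that joins complexes III and IV into supercomplexes, was at 124, 131, 130 and 128 CPM in control media and at 145, 139, 139 and 143 CPM in conditioned media. The groups stood apart, at log2 fold change 0.14 (SE 0.03, edgeR adjusted p = 5.9e-04). Its paralogue Cox7a2, the standard subunit of complex IV in most tissues, was at 46.5, 49.8, 54.1 and 47.8 CPM in control media and at 43.3, 44.7, 40.9 and 44.4 CPM in conditioned media. It moved the other way, by -0.19 (SE 0.05, edgeR adjusted p = 0.0021), also with no overlap. The ratio of Cox7a2l to Cox7a2 counts went from 2.60 ± 0.131 to 3.27 ± 0.136 (SD, n = 4 each) and did not overlap. The muscle form Cox7a1 had under 3 CPM in every sample and was not called. Of the 50-base words of Cox7a2l, 17.7% occur in another annotated gene, against 0% for Cox7a2.

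**Figure D4:**
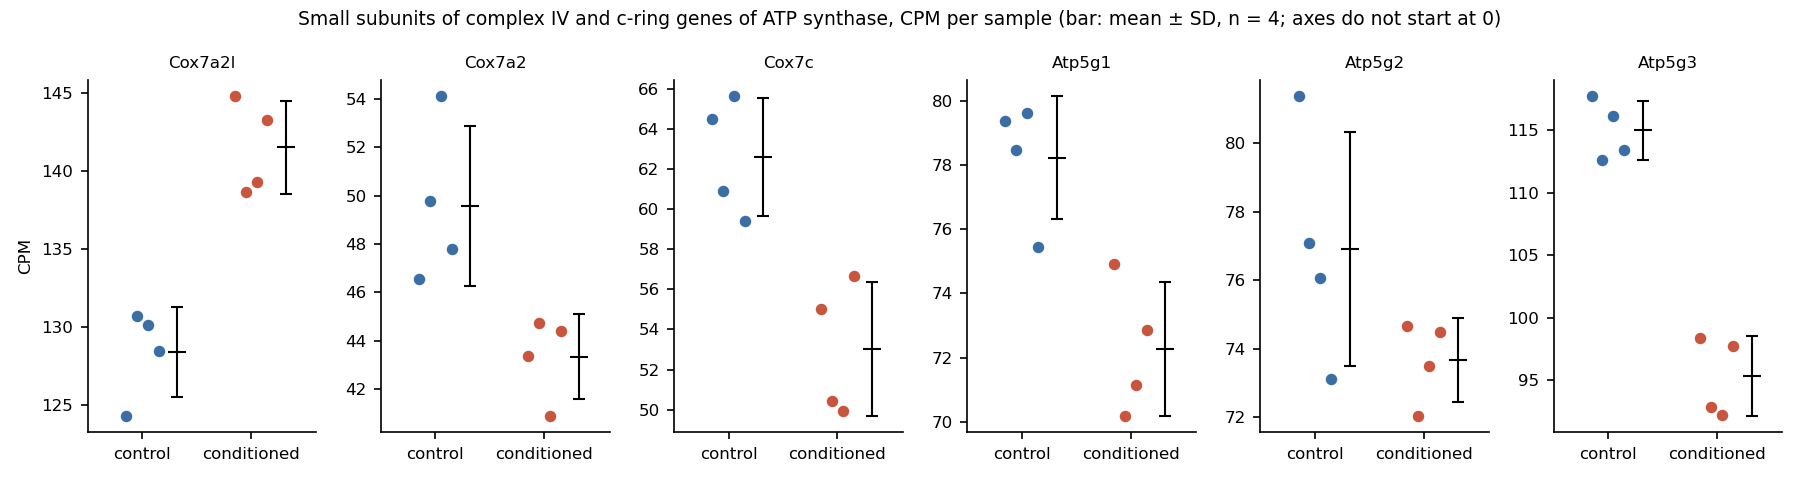
CPM per sample of 3 small complex IV genes and of the 3 c-ring genes of the ATP synthase, with mean ± SD (n = 4 per medium). Cox7a2l was higher in conditioned media (139 to 145 against 124 to 131 CPM), Cox7a2 and Cox7c were lower, and of the c-ring genes Atp5g3 moved farthest (92.2 to 98.4 against 113 to 118 CPM).

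Complex V, the ATP synthase, had 5 lower and 0 higher calls among 18 nuclear genes (27.8%, against 30.5% called and 14.8% lower among all genes). The median was -0.09, or -0.051 with the offset. Its most abundant genes did not pass the test: Atp5b, the catalytic beta subunit, was at 1591 ± 48.2 and 1645 ± 26.5 CPM (called higher without control replicate 2), and Atp5a1, the alpha subunit, at 1295 ± 18.5 and 1313 ± 18.9 CPM (SD, n = 4 each). The smallest p-value of any member was that of Atp5g3. It stood at 118, 113, 116 and 113 CPM in control media and at 98.4, 92.9, 92.2 and 97.7 CPM in conditioned media. The distance between the media was several times the spread within them (log2 fold change -0.27, SE 0.03, edgeR adjusted p = 1.9e-07).

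Atp5g1, Atp5g2 and Atp5g3 are 3 genes whose proteins differ in their import sequence and give the same mature subunit of the rotating c ring. Atp5g1 changed by -0.11 (SE 0.04, edgeR adjusted p = 0.016), a call lost without any 1 of control replicate 1 and conditioned replicates 2 and 3 (adjusted p up to 0.068). Atp5g2 changed by -0.06 (SE 0.04) without a call. Of the counts of the 3 genes, Atp5g3 gave 42.6% ± 0.563 in control and 39.5% ± 0.401 in conditioned media, Atp5g1 29.0% ± 0.382 and 30.0% ± 0.212, and Atp5g2 28.5% ± 0.629 and 30.5% ± 0.388 (SD, n = 4 each). None of the 3 shares overlapped between the media. Atp5s, a factor linked to the coupling of the synthase, was at 8.05, 8.76, 8.74 and 9.14 CPM in control media and at 6.46, 6.23, 7.36 and 6.88 CPM in conditioned media. All conditioned samples were lower (log2 fold change -0.37, SE 0.09, edgeR adjusted p = 0.0026). Atp5j, a subunit of the stalk, and Atp5j2, in the membrane part, each changed by about -0.11 and were called; the call of Atp5j was lost without conditioned replicate 1, and that of Atp5j2 without control replicate 1.

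**Figure D5:**
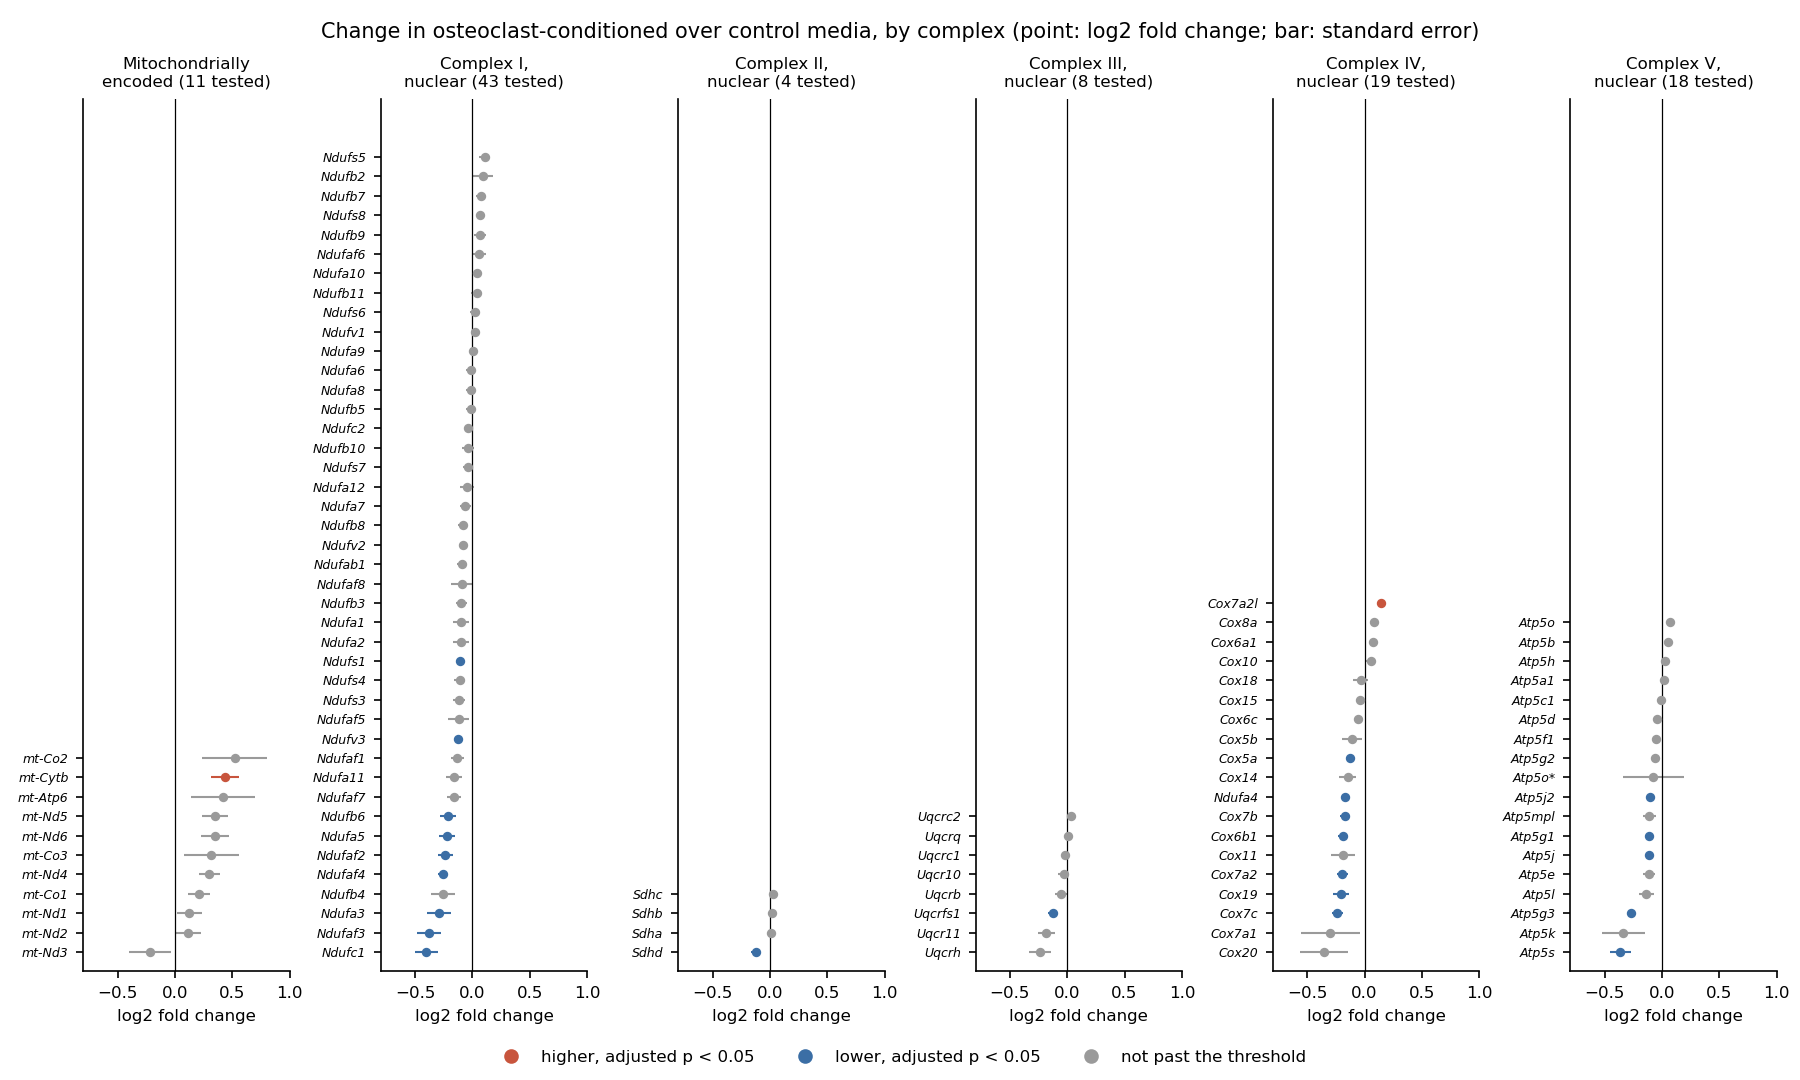
Log2 fold change of conditioned over control media with its standard error for 102 of the 103 members tested, by genome and complex. Red marks the 2 genes called higher (mt-Cytb and Cox7a2l), blue the 23 called lower and grey those not past the threshold, and Atp5o* is a second, short annotation entry of that symbol.

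By role, the nuclear assembly factors had a median log2 fold change of -0.15 (5 lower of 16 tested), the accessory subunits -0.08 (13 lower and 1 higher of 56) and the core subunits -0.04 (5 lower of 20), where 14.8% of all genes were lower. With the offset for GC content and length the medians were -0.117, -0.035 and -0.014. Without control replicate 3 the accessory median was -0.036. The nuclear members also differed by level. Of the 19 with at least 100 CPM, 3 were lower (15.8%) and 1 higher (5.26%), with a median of 0.01; over all genes of that level 18.5% were lower and 27.7% higher, with the same median of 0.01. Of the 54 with 20 to 100 CPM, 13 were lower (24.1%) and 0 higher, with a median of -0.09, against 16.5% lower, 15.8% higher and a median of -0.01 over all genes. Of the 19 under 20 CPM, 7 were lower (36.8%) and 0 higher, with a median of -0.21, against 10.2% lower, 7.56% higher and a median of -0.03. Across the 92 nuclear members, the change and log2 mean CPM had a Pearson r of 0.53 and a Spearman rho of 0.49, against 0.07 and 0.12 over all genes tested.

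Gene length moved with the change to a small degree, at a Pearson r across genes of 0.14 over all genes tested and 0.16 over the nuclear members. For GC content the r was 0.00044 over all genes and 0.24 over the nuclear members. Over all genes tested with at most 1000 bases of exon the median log2 fold change was -0.06, and the nuclear members of that length had -0.09, with 3 of 22 lower (13.6%, against 12.1% of all genes that short). At over 1000 and up to 2000 bases the medians were -0.04 and -0.11, with 9 of 33 members lower (27.3%, against 15.7%). Over 2000 bases they were -0.0038 and -0.05, with 11 of 37 lower (29.7%, against 14.7%). With an offset fitted per sample on GC content and length, the median of the nuclear members went from -0.09 to -0.04, and 10 members were called higher and 16 lower, of 26 in all. The offset took GC content and length together, so the part of each in this shift was not tested. Of the 25 members called without the offset, 18 were called with it. Ndufaf3, Ndufaf4, Ndufc1, Ndufs1, Cox6b1, Cox7a2, Cox7a2l, Cox7c, Ndufa4, Atp5g3 and Atp5s kept their call in each of the 20 alternative fits, the offset included.

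The promoters of nuclear respiratory genes are known for sites of NRF1, GABPA (NRF2) and YY1. RefSeq windows on GRCm38 of 250 bases before to 50 after the gene start were matched for 83 of 102 nuclear symbols (89 windows). Both strands were searched for the words GCGCANGCG (NRF1), CCGGAAG (GABPA) and AAGATGGC (YY1). The first was in 25.8% of member windows against 6.25% of all 32851 windows, the second in 27.0 against 8.86%, and the third in 14.6 against 2.75%. Windows of members called lower held them in 20.8, 16.7 and 16.7%, and those of members tested and not called in 31.0, 31.0 and 15.5%. The member windows held each word more often than windows at large. The called windows held the NRF1 and GABPA words in a smaller share than the uncalled ones and the YY1 word in a like share, from 24 and 58 windows, and these shares were not tested. Windows are shown for the 4 members that kept their call in each alternative fit and hold a match, with the match in capitals: Ndufc1 (chr3:51408906-51409205, minus strand, YY1), Ndufaf4 (chr4:24897833-24898132, plus strand, overlapping NRF1 words), Cox6b1 (chr7:30626065-30626364, minus strand, GABPA) and Atp5g3 (chr2:73911277-73911576, minus strand, NRF1).
Ndufc1: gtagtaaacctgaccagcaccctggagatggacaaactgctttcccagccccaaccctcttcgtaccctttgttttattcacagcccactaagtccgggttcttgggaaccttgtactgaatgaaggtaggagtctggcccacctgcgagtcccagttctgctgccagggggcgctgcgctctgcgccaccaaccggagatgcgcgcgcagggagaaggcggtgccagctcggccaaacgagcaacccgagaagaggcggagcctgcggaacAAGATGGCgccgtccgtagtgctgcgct
Ndufaf4: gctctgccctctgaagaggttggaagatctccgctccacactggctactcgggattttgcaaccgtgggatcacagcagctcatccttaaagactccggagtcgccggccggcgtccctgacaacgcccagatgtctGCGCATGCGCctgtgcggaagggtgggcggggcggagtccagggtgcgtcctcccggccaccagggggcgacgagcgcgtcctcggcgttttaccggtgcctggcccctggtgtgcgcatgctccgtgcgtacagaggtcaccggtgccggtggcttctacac
Cox6b1: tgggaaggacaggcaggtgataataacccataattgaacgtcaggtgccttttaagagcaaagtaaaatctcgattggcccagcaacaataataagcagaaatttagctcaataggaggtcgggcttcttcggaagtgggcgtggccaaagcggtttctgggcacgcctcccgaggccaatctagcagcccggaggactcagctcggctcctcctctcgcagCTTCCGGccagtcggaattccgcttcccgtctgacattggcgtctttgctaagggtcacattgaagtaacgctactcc
Atp5g3: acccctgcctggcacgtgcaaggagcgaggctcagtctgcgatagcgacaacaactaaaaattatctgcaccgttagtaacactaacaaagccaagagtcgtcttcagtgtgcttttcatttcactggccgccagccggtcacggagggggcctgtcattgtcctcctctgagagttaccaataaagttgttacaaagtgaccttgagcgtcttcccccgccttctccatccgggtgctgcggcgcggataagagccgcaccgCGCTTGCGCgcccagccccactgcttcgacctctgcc
Of the other members with a window that kept their call in each fit, Cox7a2l, Cox7a2, Cox7c, Ndufaf3, Ndufa4 and Atp5s held 0 of the 3 words.

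Most genes of the pathway outside these name families were not called. Over the lists of such genes, 31 of 181 tested were lower (17.1%) and 8 higher (4.42%), so that 21.5% were called, against 14.8% lower, 15.7% higher and 30.5% called among all genes. The share of lower calls thus lay near that of all genes, while the share of higher calls lay below it. These shares were not tested. Of 74 mitochondrial ribosomal protein genes, which make the ribosome that translates the mitochondrial messages, 16 were lower and 2 higher (median log2 fold change -0.05), led by Mrpl24 at -0.33 (SE 0.05) and Mrpl16 at -0.23 (SE 0.05). Of 26 genes for mitochondrial RNA processing and translation, 9 were lower and 2 higher, among them Fastkd1 at -0.20 (a call lost without control replicate 2 or conditioned replicate 2) and Pnpt1, a mitochondrial RNA exonuclease subunit, at -0.18. The 2 higher genes, named after their values were seen, were Lrpprc, which is known to stabilise mitochondrial mRNAs, at 0.17 (SE 0.03, edgeR adjusted p = 2.3e-05), and Ptcd1 at 0.16. The call of Ptcd1 was lost in 4 of 20 alternative fits, with DESeq2 and without any 1 of control replicates 1 and 4 and conditioned replicate 4.

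Of 17 genes for mitochondrial DNA maintenance and transcription, 1 was higher, the transcription factor Tfb2m, at 0.14 (SE 0.05, edgeR adjusted p = 0.033), and 0 were lower. The call of Tfb2m was lost in 7 of 20 alternative fits (adjusted p up to 0.110): with total-count scaling, with DESeq2 and without any 1 of control replicates 1, 2 and 3 and conditioned replicates 1 and 4. Of 30 assembly factors outside the name rule, 2 were lower (Uqcc2 and Acad9). The call of Uqcc2 was lost in 9 of the 20 (adjusted p up to 0.146), among them DESeq2, no filter, the offset with and without the block, and leaving out control replicate 1 or 3 or conditioned replicate 1, 2 or 4. That of Acad9 was lost without conditioned replicate 1 (adjusted p = 0.098). Of 19 electron carrier and coenzyme Q genes, 2 were lower, with Pdss1 at -0.22, and 1 was higher: Coq8a, needed for coenzyme Q synthesis, went from 8.37 ± 0.330 to 11.7 ± 0.867 CPM (SD, n = 4 each; log2 fold change 0.49, SE 0.08, edgeR adjusted p = 3.2e-05). Of 6 transport genes, 1 was lower, the ADP/ATP carrier Slc25a5 at -0.10, a call lost in 5 of the 20 fits (with the offset, with and without the block, and without any 1 of control replicate 2 and conditioned replicates 1 and 4). Of 9 transcription regulators of respiratory genes, Pprc1 was lower (-0.15), and Hcfc1 (0.12) and Gabpb2 (0.08, named after its value was seen) were higher. The call of Gabpb2 was lost in 10 of the 20 fits (each kind of offset, DESeq2, total-count and upper-quartile scaling, and without any 1 of control replicates 1 and 3 and conditioned replicates 2, 3 and 4), with a change of between -0.010 and 0.10 and an adjusted p of up to 0.818.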

How the data were processed

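RNA of 8 PER-M60 samples was extracted with a column kit and made into SureSelect HS2 libraries, per the labels' protocols. The deposited values are raw counts per Ensembl gene ID, with no normalization; per the submitters' processing notes, STAR 2.7.5a, featureCounts 2.0.1 and mm10 were used. Header numbers tied every column to a sample, leaving 0 unmatched. Of 21859 IDs, 21817 matched GENCODE M21 (Ensembl 96) on GRCm38, which supplied symbols, coordinates and lengths.

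Counts passing filterByExpr were scaled by TMM and fitted with edgeR 4.0.16 (R 4.3.3, glmQLFit, robust, medium as the only term) on all genes. P-values were Benjamini-Hochberg adjusted over all genes tested. CPM are TMM-scaled. Standard errors were derived from each change and its F statistic. The script was tested on simulated data. Copies were sought as 50-base words shared with transcripts of other annotated genes.

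Named were the mitochondrial genes, complex II, set core genes and isoforms, up to 3 called members per complex and direction by size at 5 CPM or more, and up to 2 called genes per further list. Members and lists were chosen with earlier results of these data known. DESeq2 1.42.0, limma-voom (limma 3.58.1), other scalings and filters, a threshold of 0.01, a GC and length offset, a replicate block and leaving out each sample were tried as alternatives; restricting to members with under 10% of copied words was added after seeing the data. The labels name no batch. The values of 1 member are not reported here.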

Additional observations from a re-analysis of the deposited data

Results flagged for a closer look

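In groups of 4 samples, 84 groups of named members and shares were examined for a sample far from the other 3, and 9 were flagged; chance flags about 1 in 20 groups (4.2 of 84). The measure is the gap to the nearest other sample over the whole range of the group, set against Dixon's critical value at the 95% level. Conditioned replicate 4 was far above its group for mt-Nd1 (ratio 0.986; 2391 CPM against 1937 to 1944), mt-Nd2 (0.982; 1258 against 1054 to 1057), mt-Co1 (0.889; 5952 against 4907 to 5024), mt-Cytb (0.881; 1842 against 1442 to 1489) and the mitochondrially encoded share of counts (0.888; 1.44% against 1.16 to 1.19%). These 5 flags share 1 library and are not independent.

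Control replicate 2 was far below its group for mt-Nd4 (0.831; 344 CPM against 387 to 396) and above it for Sdhc (0.896; 73.9 against 69.2 to 69.7). Control replicate 3 was high for mt-Co2 (0.907; 0.971 CPM against 0.554 to 0.592), a gene with at most 23 counts in any sample. Control replicate 4 was low for the share of counts of the nuclear members (0.847; 0.950% against 0.966 to 0.969%), and lay nearest to the conditioned samples.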

How the results depend on the processing

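Of 40 named members tested, 19 were called; 11 of these kept the call in all 20 alternative fits, 8 lost it under at least 1, and 0 changed sign. Of those not called, 8 gained a call under at least 1 fit. Under total-count scaling 36 members were called and 40.7% of all calls were higher (51.6% with TMM), the core median was -0.063, and the uncalled Sdha, Sdhb and Atp5a1 turned to -0.0089, -0.00086 and -0.0018; leaving out 1 sample moved Uqcrc1 between -0.033 and 0.0035 (without control replicates 3 and 1). Calls higher and mitochondrial calls were 5 and 4 with DESeq2, 6 and 5 with the replicate block, 10 and 4 with the GC and length offset, and 12 and 5 with offset and block together. A mean of at least 50 counts gave 2 mitochondrial calls. Among members with under 10% copied words, 18 were called, 1 higher and 17 lower. The other 7 called members had a larger share of copied words. With the offset, medians were -0.039 (nuclear), -0.036 (I), 0.0019 (III), -0.097 (IV), -0.051 (V), -0.014 (core), -0.035 (accessory) and -0.117 (assembly); with offset and block, -0.040 (nuclear), -0.037 (I), 0.0016 (III), -0.095 (IV), -0.050 (V), -0.013 (core) and -0.114 (assembly). At an adjusted p under 0.01, 2147 of all genes, 15 members (14 lower, 1 higher), 15 nuclear and 0 mitochondrial were called. Leaving out 1 sample at a time gave 20 to 36 members called, 1 to 5 higher calls and 0 to 1 mitochondrial calls. By complex, the medians ran from -0.088 to -0.054 (I), -0.067 to -0.024 (III) and -0.104 to -0.062 (V). By role, they ran from -0.057 to -0.028 (core), -0.086 to -0.036 (accessory) and -0.183 to -0.136 (assembly). The numbers were not taken as pairs, since the labels name no batch. Over all genes tested, correlations of same-numbered samples' deviations were -0.051 to 0.143 (other pairs averaged -0.013). Correlations over all genes cannot settle whether a given gene was paired. The replicate block called 30 members, 5 of them mitochondrial.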
